A study of Mus musculus with 16 samples.

Results

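Levels of 35 genes that mark macrophages and the lipid-laden macrophages called foam cells were followed in the aortas of atherosclerosis-prone mice given a progestin. The genes were chosen by name, as those whose gene name on the array stands on a list of macrophage identity and foam cell markers, and each was read from the brightest of its probes. All 35 of them were found among the 28482 genes of the array, on 56 probes in all.

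All 16 samples were aorta from female C57BL/6 mice deficient in ApoE, the apolipoprotein through which remnant lipoproteins are cleared from the blood. All mice had been ovariectomized at 4 to 5 weeks of age. A subcutaneous pellet built to release for 90 days followed 2 weeks later, a high-fat Western-type diet was fed alongside, and the aorta between the arch and the kidney branches was taken after 78 to 90 days. The 4 groups of 4 samples were medroxyprogesterone acetate (MPA), the placebo group of MPA, norethisterone acetate (NET-A) and the placebo group of NET-A. Each placebo group was assigned to the progestin whose initial its title carries and whose slides it shares. No group had intact ovaries or functional ApoE, so every value refers to ovariectomized, ApoE-deficient animals, and the pellet doses are not given in the labels.

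Many macrophages of the plaque arise from monocytes that enter the vessel wall. They take up modified lipoproteins through scavenger receptors until droplets of cholesterol ester fill the cell. Lipid-laden macrophages of the plaque express a characteristic set of genes around the receptor TREM2. Many other macrophage receptors carry no signalling motif of their own and signal through the small adaptors TYROBP and the Fc receptor gamma chain, whose ITAM motifs recruit the kinase SYK.

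The list has 8 genes of lineage and lysosome, 6 of lipid-associated and foam cells, 2 scavenger receptors, 4 Fc receptors and ITAM adaptors, 4 C-type lectins, 3 genes of resident macrophages, 2 integrins with the lipopolysaccharide co-receptor Cd14, and 5 membrane proteins found on most leukocytes. Levels are log2 signals minus the 75th percentile of the same array, so that a level of 0 lies at that percentile. Probes differ in how strongly they bind, so levels are compared between groups within 1 probe and never between genes.

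Macrophage RNA was measurable in these aortas. Of the 35 genes, 33 were well above background on all 16 arrays, where 44.0% of all 28482 genes were, and Marco was so on 14 and Clec4n on 15. In whole aorta, fewer macrophages, less RNA per macrophage and a change in other cells that express these genes cannot be told apart. Whether each sample came from its own animal is not stated in the labels, so the aortas of a group stand for its samples throughout. A p-value here measures only how far these samples spread, which may be technical.

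Probes that cross an exon junction read spliced RNA. Some of the brightest probes covered a stretch of the genome longer than the probe itself, and 3 of them are shown because their genes carry results given further on: galectin-3 (Lgals3), the adaptor Tyrobp and the tetraspanin Cd53. On build mm9 the Lgals3 probe lay within chr14:48004398-48005214, the Tyrobp probe within chr7:31200651-31202378 and the Cd53 probe within chr3:106565046-106566140. Each probe has 60 bases, printed 5′ to 3′ as the array files give it.
Lgals3: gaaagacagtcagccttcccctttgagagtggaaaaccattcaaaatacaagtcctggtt
Tyrobp: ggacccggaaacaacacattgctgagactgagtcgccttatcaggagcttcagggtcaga
Cd53: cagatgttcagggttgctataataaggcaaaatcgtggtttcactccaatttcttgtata

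Promoters were read for all members with a promoter sequence, whether or not they varied with the other members across arrays. RefSeq promoter sequences (build GRCm38.p6) matched 26 of the 35 genes, and those not matched were Emr1, Csf1r, Atp6v0d2, Msr1, Tyrobp, Clec4n, Lyve1, Cd14 and Cd52. The 250 bases before each start site were searched on both strands for the letters GAGGAA, which hold the GGAA core bound by ETS factors such as the macrophage factor PU.1, for the longer PU.1 form GAGGAAGT, and for TCANGTGA, the M-box bound by the MITF and TFE factors. GAGGAA was found in 16 of the 26 genes (61.5%), against 25.9% of 27025 genes in the same windows. GAGGAAGT, every copy of which also holds GAGGAA, was found in 1 of 26 (3.85%), against 2.79% of all genes, and TCANGTGA in 2 of 26 (7.69%), against 3.98%. A match describes letters only and is no evidence of binding. The windows of Spp1, the only member with the longer form, of Cd53 and Fcgr1, and of Acp5, 1 of the 2 with an M-box, are shown because these genes differ in how closely they follow the other members, with the matches to GAGGAA or TCANGTGA, or to their reverse complements, in capitals. They lie at chr5:104434861-104435110 (plus strand), chr3:106790150-106790399 (minus strand), chr3:96293970-96294219 (minus strand) and chr9:22130599-22130848 (minus strand).
Spp1: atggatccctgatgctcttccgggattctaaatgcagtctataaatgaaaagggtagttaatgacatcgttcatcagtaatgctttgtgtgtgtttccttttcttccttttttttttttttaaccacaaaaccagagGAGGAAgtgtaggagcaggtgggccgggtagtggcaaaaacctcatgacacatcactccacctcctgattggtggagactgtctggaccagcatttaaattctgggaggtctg
Cd53: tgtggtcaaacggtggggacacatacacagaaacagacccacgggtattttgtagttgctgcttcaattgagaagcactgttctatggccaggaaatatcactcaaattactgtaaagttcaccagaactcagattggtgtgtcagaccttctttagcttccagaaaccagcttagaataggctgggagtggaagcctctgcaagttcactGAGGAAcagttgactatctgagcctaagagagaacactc
Fcgr1: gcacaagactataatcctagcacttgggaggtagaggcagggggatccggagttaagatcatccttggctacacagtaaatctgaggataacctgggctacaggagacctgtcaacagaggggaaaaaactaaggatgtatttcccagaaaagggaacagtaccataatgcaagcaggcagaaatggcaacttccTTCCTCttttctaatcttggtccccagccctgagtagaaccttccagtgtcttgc
Acp5: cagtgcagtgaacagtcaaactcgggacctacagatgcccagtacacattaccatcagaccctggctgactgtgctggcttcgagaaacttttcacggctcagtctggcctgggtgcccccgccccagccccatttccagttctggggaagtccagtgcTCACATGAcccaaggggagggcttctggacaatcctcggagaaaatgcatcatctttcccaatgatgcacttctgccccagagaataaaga

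Most macrophage genes had lower mean levels in progestin-treated aortas than in their placebo group, and none of them passed the test singly. In MPA aortas 32 of the 35 were lower than in the placebo group, with a median log2 difference of -0.53, where 52.2% of all 15374 genes tested were lower and their median was -0.01. In NET-A aortas 34 of 35 were lower, with a median of -0.54, where 54.7% of 21183 genes were lower and their median was -0.02. The differences ran from -1.03 (Gpnmb) to 0.73 (Clec4e) under MPA and from -1.29 (Spp1) to 0.35 (Lyve1) under NET-A.

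In limma with Benjamini-Hochberg adjustment over all genes, none of the 35 was called under MPA (0% of all genes were called) or under NET-A (0%). The adjusted p of the members ran from 0.674 to 0.981 under MPA and from 0.661 to 0.999 under NET-A. Without adjustment, 12 of the 35 had a limma p under 0.05 and were lower under MPA, where 2.69% of all genes did so, and 9 of 35 under NET-A, where 3.68% did. The groups did not overlap for 3 genes that were lower under MPA, where 1.58% of all genes were separated in that direction, and for 1 gene lower under NET-A, where 2.32% were. These shares describe the list, whose genes vary together and were not drawn independently of the data.

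**Figure D1:**
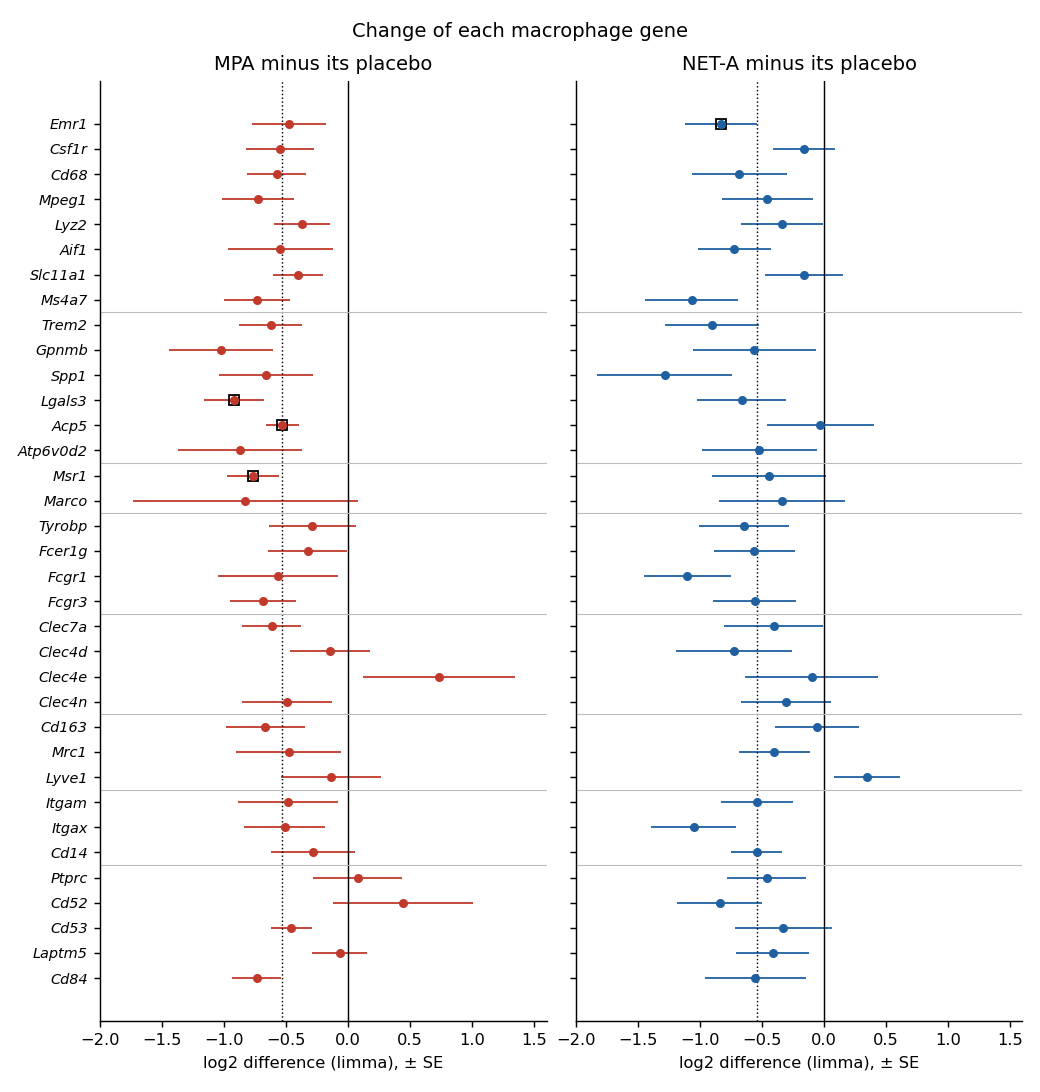
Log2 difference of each of the 35 genes, MPA minus its placebo group (left) and NET-A minus its placebo group (right), ± SE from limma with 4 arrays per group (3 MPA arrays for Lgals3). Genes are grouped by role between the grey lines, dotted lines mark the median over the 35 genes (-0.53 and -0.54), and black squares mark the 4 differences whose groups did not overlap. Most points lie left of 0, and no difference passed the test.

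The shift was uneven across arrays, and 1 placebo array in each experiment stood highest. Averaged over the 35 genes and set against the mean of the placebo group, MPA replicates 1 to 4 stood at -0.08, -0.66, -0.46 and -0.64, against -0.58, 0.11, -0.10 and 0.57 for its placebo replicates. Their ranges overlapped, with placebo replicates 1 and 3 inside the range of the MPA arrays. The same average was -0.60, -0.82, -0.57 and -0.13 in NET-A replicates 1 to 4, against -0.09, -0.31, -0.50 and 0.90 in its placebo replicates. Here too the ranges overlapped.

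Replicate 4 of the NET-A placebo group had the highest level of its experiment for 32 of the 35 genes, where it did for 11.0% of all genes, and replicate 4 of the MPA placebo group for 23 of 35, where it did for 15.7%. NET-A replicate 2 was the lowest array of its experiment for 17 of the 35, where it was for 24.9% of all genes. MPA replicates 2, 3 and 4 were each lowest for 9 of the 35, where they were for 23.8%, 10.2% and 7.47% of all genes. MPA replicate 2 was also the dimmest array of its experiment, with a log2 75th percentile of 7.28 and 46.3% of spots well above background. Without MPA replicate 2 the median of the members was -0.43 and 5 of 35 were higher under MPA. Without replicate 4 of the NET-A placebo group the median of the members was -0.21 and 9 of 35 were higher under NET-A. Without replicate 4 of the MPA placebo group the median was -0.34 and 6 of 35 were higher under MPA. Without replicate 1 of that group, the lowest placebo array, it was -0.74. The median stayed below 0 in each of the 16 fits that left out 1 array of its own experiment.

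The slides, named in the labels' array descriptions, each held arrays of both groups of an experiment. Within slide 1 the median over the members was -0.28 with 26 of 35 lower under MPA, and within slide 2 it was -0.73 with 34 lower (2 MPA and 2 placebo arrays each). Within slides 3, 4 and 5 the NET-A medians were -0.52, -0.23 and -0.64, with 30, 27 and 33 of 35 lower. Slides 3 and 4 held 1 array of each group, so those values have no replicate. The direction of the median was thus the same on all 5 slides, with a size that differed between them. Single genes were less even: 10 of the 35 had opposite signs on slides 1 and 2. Of these, 7 had lower means over all MPA arrays (Aif1, Tyrobp, Fcer1g, Itgax, Cd14, Laptm5 and Lyve1) and 3 had higher means (Clec4e, Ptprc and Cd52). Within slides 1 and 2 the difference was 0.30 and -0.87 for Tyrobp, 0.16 and -0.82 for Fcer1g, 0.16 and -1.19 for Itgax, 0.08 and -1.18 for Aif1, and 0.39 and -0.53 for Laptm5.

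**Figure D2:**
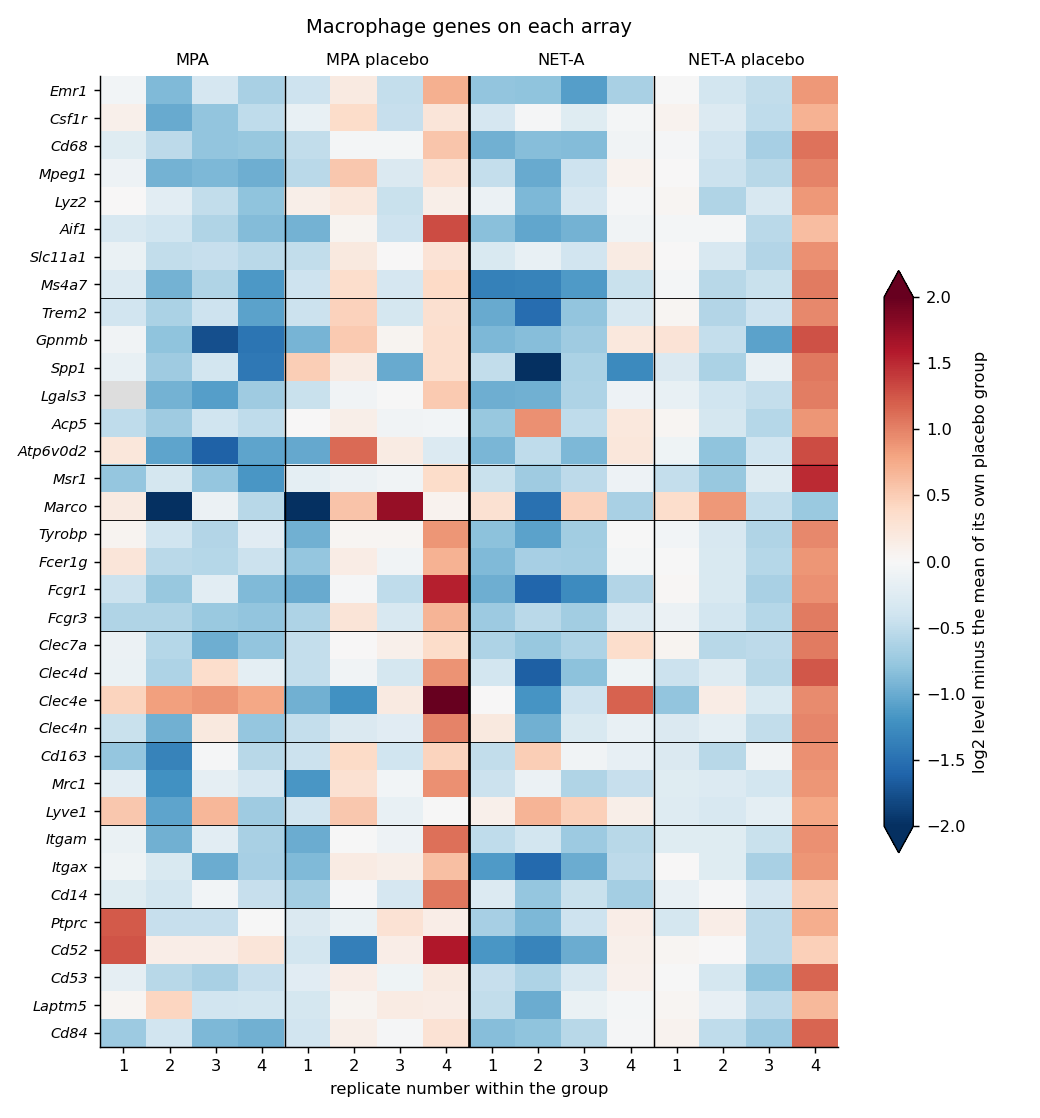
Level of each of the 35 genes on each of the 16 arrays, as log2 level minus the mean of its own placebo group, clipped at 2 in either direction; columns are replicates within the groups MPA, MPA placebo, NET-A and NET-A placebo, and the grey cell is a spot left out as an outlier. Replicate 4 of the NET-A placebo group is the highest array for 32 of 35 genes, and replicate 4 of the MPA placebo group for 23 of 35.

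Genes of lineage and lysosome were lower in all 8 cases under both progestins, with medians of -0.55 under MPA and -0.57 under NET-A, and none passed the test. Emr1 (now Adgre1), the adhesion receptor most used to recognise mouse macrophages, was measured at 0.85, 0.83, 0.53 and 0.99 in NET-A aortas, against 1.62, 1.26, 1.14 and 2.50 in their placebo aortas. All NET-A arrays lay below all placebo arrays, and the log2 difference was -0.83 ± 0.29 (limma adjusted p = 0.713). In the MPA experiment Emr1 stood at 3.44, 2.61, 3.16 and 2.84 in MPA aortas, against 3.07, 3.67, 3.01 and 4.20 in placebo aortas. There the groups overlapped, with a difference of -0.48 ± 0.30 (limma adjusted p = 0.856).

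Ms4a7, a membrane protein of the tetraspan MS4A family found on macrophages, had levels of 0.65, 0.66, 0.86 and 1.55 in NET-A aortas, against 1.96, 1.45, 1.56 and 3.04 in placebo aortas. NET-A replicate 4 alone overlapped with the placebo arrays, and the difference was -1.07 ± 0.37 (limma adjusted p = 0.707). Under MPA the levels were 3.58, 2.90, 3.25 and 2.69, against 3.43, 4.19, 3.51 and 4.25 in placebo aortas. MPA replicate 1 was the array that overlapped, and the difference was -0.74 ± 0.27 (limma adjusted p = 0.784).

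Mpeg1 encodes perforin-2, a pore-forming protein of phagocytes. Its levels were 4.91, 4.07, 4.11 and 4.04 in MPA aortas, against 4.47, 5.55, 4.72 and 5.29 in placebo aortas, so that 3 of the 4 MPA arrays lay below every placebo array. The difference was -0.73 ± 0.29 (limma adjusted p = 0.784). In NET-A aortas Mpeg1 had 2.78, 2.26, 2.86 and 3.33, against 3.27, 2.83, 2.71 and 4.25 in placebo aortas. Placebo replicate 4 stood apart, and the difference was -0.46 ± 0.37 (limma adjusted p = 0.934).

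The other 5 genes of this role had lower means as well. Differences under MPA and NET-A were -0.58 and -0.69 for the endolysosomal glycoprotein Cd68, -0.55 and -0.16 for Csf1r, the receptor for the macrophage growth factor CSF1, and -0.55 and -0.72 for Aif1, an actin-binding protein. They were -0.41 and -0.16 for the phagosomal metal transporter Slc11a1 and -0.37 and -0.34 for lysozyme, Lyz2. Lyz2 has a close paralog, Lyz1, and whether its probe also binds that RNA was not tested. A further Csf1r probe gave a difference of the opposite sign under MPA. This was the only case of opposite sign among the 18 additional member probes measured in that experiment. Under NET-A all 21 had the sign of the brightest probe. Sizes differed between probes in both directions. A second Lyz2 probe gave larger differences, -0.74 under MPA and -0.68 under NET-A. A second Itgax probe gave smaller ones, -0.02 and -0.30, against -0.51 and -1.05 for the brightest.

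The lipid-associated and foam cell genes were lower in 6 of 6 cases under both progestins, with medians of -0.77 under MPA and -0.61 under NET-A, and none was called. Acp5, the tartrate-resistant acid phosphatase of osteoclasts and macrophages, was measured at 1.92, 1.71, 2.02 and 1.91 in MPA aortas, against 2.42, 2.53, 2.36 and 2.37 in placebo aortas. The MPA arrays all lay below the placebo arrays and both groups were tight, and the difference of -0.53 ± 0.13 had the smallest p of the members under MPA (limma adjusted p = 0.674). In NET-A aortas the levels were 0.31, 1.98, 0.55 and 1.27, against 1.09, 0.71, 0.49 and 1.94 in placebo aortas. These groups overlapped throughout, with NET-A replicate 2 the highest array, and the difference was -0.03 ± 0.43 (limma adjusted p = 0.999).

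Lgals3 encodes galectin-3, a galactoside-binding lectin abundant in plaque macrophages and read by the first probe shown above. MPA replicate 1 carried an outlier mark for this probe and was left out, and the other 3 MPA aortas had 4.95, 4.79 and 5.17, against 5.44, 5.82, 5.89 and 6.41 in placebo aortas. The groups were separate, with a difference of -0.92 ± 0.24 over 3 MPA and 4 placebo arrays (limma adjusted p = 0.776), and of -0.87 with the marked spot kept. In NET-A aortas Lgals3 had 3.71, 3.74, 4.08 and 4.59, against 4.54, 4.29, 4.22 and 5.71 in placebo aortas. NET-A replicate 4 overlapped with the placebo arrays, and the difference was -0.67 ± 0.36 (limma adjusted p = 0.864).

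Gpnmb, a transmembrane glycoprotein of lipid-loaded macrophages, had levels of 5.36, 4.63, 3.67 and 3.97 in MPA aortas, against 4.51, 5.96, 5.50 and 5.78 in placebo aortas. Its difference of -1.03 ± 0.42 was the most negative of the 35 under MPA (limma adjusted p = 0.787), yet placebo replicate 1 lay among the MPA arrays. It was -0.24 within slide 1 and -1.81 within slide 2. In NET-A aortas Gpnmb had 3.22, 3.28, 3.41 and 4.34, against 4.41, 3.64, 3.05 and 5.40 in placebo aortas. The lowest array there was a placebo array, and the difference was -0.56 ± 0.50 (limma adjusted p = 0.948).

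Trem2, the lipid-sensing receptor that signals through Tyrobp, differed by -0.63 ± 0.26 under MPA and -0.90 ± 0.38 under NET-A (limma adjusted p = 0.787 and 0.795). For Spp1, the secreted phosphoprotein osteopontin, NET-A aortas had 4.91, 2.66, 4.77 and 4.14, against 5.12, 4.78, 5.27 and 6.47 in placebo aortas. NET-A replicate 2 was far below the rest, and the difference of -1.29 ± 0.55 was the most negative of the 35 under NET-A (limma adjusted p = 0.804). Under MPA the Spp1 difference was -0.67 ± 0.38 (limma adjusted p = 0.855). Atp6v0d2, a proton pump subunit of macrophages and osteoclasts, differed by -0.87 ± 0.50 under MPA and -0.52 ± 0.46 under NET-A.

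Both scavenger receptors had lower means in both experiments. Msr1, scavenger receptor A, which takes up modified low-density lipoprotein, was measured at -0.33, 0.09, -0.32 and -0.72 in MPA aortas, against 0.25, 0.34, 0.38 and 0.82 in placebo aortas. Every MPA array lay below every placebo array, and the difference was -0.77 ± 0.21 (limma adjusted p = 0.767). The NET-A levels were -2.69, -2.95, -2.77 and -2.35, against -2.72, -3.00, -2.50 and -0.75 in placebo aortas. Only placebo replicate 4 stood clear of the NET-A arrays there, and the difference was -0.45 ± 0.46 (limma adjusted p = 0.963). Marco, a scavenger receptor of selected tissue macrophages, varied most within groups (within-group SD 1.25) and was not above background on 2 arrays. It had -1.58, -4.60, -1.88 and -2.31 in MPA aortas, against -4.14, -1.19, -0.02 and -1.70 in placebo aortas. NET-A aortas had -1.38, -3.18, -1.23 and -2.33, against -1.34, -0.81, -2.17 and -2.43 in placebo aortas. Its differences, -0.83 ± 0.91 under MPA and -0.34 ± 0.51 under NET-A, were both smaller than that SD.

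**Figure D3:**
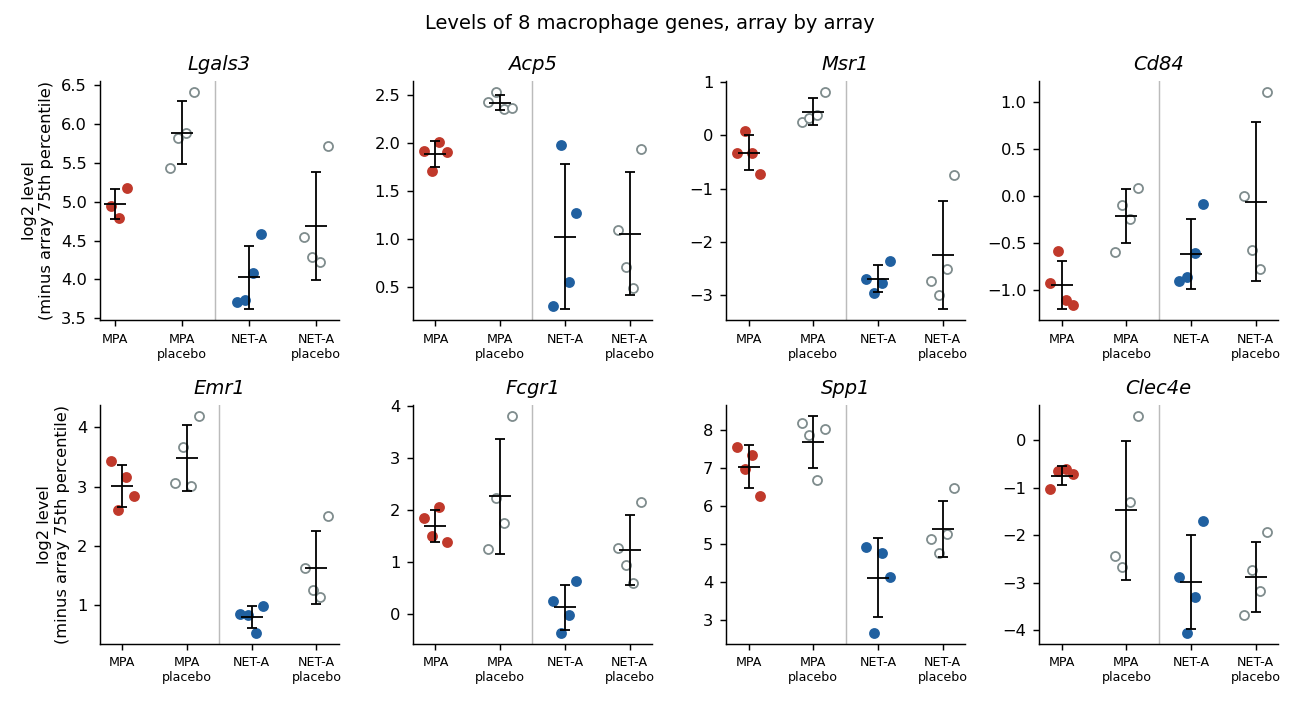
Levels of 8 genes on each array, as log2 signal minus the array's 75th percentile, in MPA, MPA placebo, NET-A and NET-A placebo aortas; bars give mean ± SD (n = 4 each, 3 for Lgals3 in MPA). MPA arrays lie below all placebo arrays for Lgals3, Acp5 and Msr1, and NET-A arrays for Emr1, while Clec4e, shown after its values were seen as the member with the highest MPA difference, has a higher mean in MPA aortas.

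The Fc receptors and ITAM adaptors were lower in 4 of 4 cases under both progestins, with medians of -0.45 under MPA and -0.60 under NET-A, none of them called. Fcgr1, the high-affinity receptor for IgG, had levels of 0.25, -0.36, -0.03 and 0.64 in NET-A aortas, against 1.26, 0.93, 0.59 and 2.14 in placebo aortas. NET-A replicate 4 overlapped with placebo replicate 3, and the difference was -1.10 ± 0.35 (limma adjusted p = 0.661). In MPA aortas the levels were 1.83, 1.50, 2.05 and 1.38, against 1.25, 2.23, 1.75 and 3.81 in placebo aortas. Placebo replicate 4 lay far above the rest, and the difference was -0.57 ± 0.48 (limma adjusted p = 0.876).

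Fcgr3, a low-affinity IgG receptor, had 2.41, 2.40, 2.26 and 2.22 in MPA aortas, against 2.40, 3.27, 2.69 and 3.68 in placebo aortas. The groups met at the lowest placebo array, replicate 1, and the difference was -0.69 ± 0.27 (limma adjusted p = 0.784). NET-A aortas had 1.45, 1.63, 1.47 and 1.90, against 2.06, 1.80, 1.61 and 3.21 in placebo aortas, a difference of -0.56 ± 0.33 (limma adjusted p = 0.884).

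Tyrobp, the adaptor of Trem2, had 2.90, 2.65, 3.02 and 3.71 in NET-A aortas, against 3.67, 3.40, 3.12 and 4.68 in placebo aortas. Here 3 of the NET-A arrays lay below every placebo array, and the difference was -0.65 ± 0.36 under NET-A (limma adjusted p = 0.87) and -0.29 ± 0.35 under MPA (limma adjusted p = 0.908). Fcer1g, the Fc receptor gamma chain, differed by -0.33 under MPA and -0.56 under NET-A.

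The C-type lectins, which bind fungal and mycobacterial sugars or products of dead cells, had medians of -0.32 under MPA (3 of 4 lower) and -0.36 under NET-A (4 of 4 lower), and none was called. Clec7a, the beta-glucan receptor Dectin-1, had 3.41, 2.96, 2.56 and 2.74 in MPA aortas, against 3.06, 3.54, 3.64 and 3.90 in placebo aortas. The 3 lowest arrays were MPA arrays, the groups overlapped, and the difference was -0.62 ± 0.24 (limma adjusted p = 0.784). Under NET-A the Clec7a difference was -0.41 ± 0.40 (limma adjusted p = 0.956). Clec4d had -0.49, -1.74, -0.93 and -0.20 in NET-A aortas, against -0.55, -0.37, -0.67 and 1.13 in placebo aortas. Only placebo replicate 4 exceeded all NET-A arrays, and the difference was -0.72 ± 0.47 (limma adjusted p = 0.901). Under MPA the Clec4d difference was -0.15 ± 0.32 (limma adjusted p = 0.955).

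Clec4n, or Dectin-2, had -2.22, -2.74, -1.57 and -2.55 in MPA aortas, against -2.25, -2.06, -2.01 and -0.78 in placebo aortas. The difference was -0.49 ± 0.36 (limma adjusted p = 0.869), with placebo replicate 4 far above the other 7 arrays. NET-A aortas had -1.50, -2.66, -2.01 and -1.84, against -1.99, -1.89, -2.18 and -0.72 in placebo aortas, and here too placebo replicate 4 was highest, with a difference of -0.31 ± 0.36 (limma adjusted p = 0.975).

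Clec4e, or Mincle, was 1 of the 3 members with a higher mean under MPA, with -1.02, -0.65, -0.59 and -0.70 in MPA aortas, against -2.44, -2.68, -1.30 and 0.53 in placebo aortas. The MPA arrays were close together while the placebo arrays spread widely, and the difference was 0.73 ± 0.61 (limma adjusted p = 0.875). It was 1.73 within slide 1 and -0.26 within slide 2, so Clec4e is 1 of the 10 members with opposite signs on the slides. Under NET-A the Clec4e difference was -0.10 ± 0.54 (limma adjusted p = 0.997). Several members, such as Clec4d, Clec4e, Itgam, Fcer1g, Tyrobp and Ptprc, are also expressed by neutrophils, whose marker genes are described after the members.

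Genes of resident macrophages had a median of -0.48 under MPA, with 3 of 3 lower, and of -0.06 under NET-A, with 2 of 3 lower, none of them called. Cd163, the receptor for haemoglobin-haptoglobin complexes, had 3.01, 2.45, 3.76 and 3.24 in MPA aortas, against 3.36, 4.17, 3.38 and 4.23 in placebo aortas. The groups overlapped through MPA replicate 3, and the difference was -0.67 ± 0.32 (limma adjusted p = 0.826). NET-A aortas had -0.34, 0.64, 0.08 and -0.01, against -0.13, -0.41, 0.08 and 1.07 in placebo aortas, a difference of -0.06 ± 0.34 (limma adjusted p = 0.997).

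Lyve1, a hyaluronan receptor of perivascular macrophages and lymphatic endothelium, was the only member with a higher mean under NET-A. Its levels were -0.60, -0.01, -0.22 and -0.58 in NET-A aortas, against -0.95, -1.01, -0.89 and 0.07 in placebo aortas. Placebo replicate 4 was the highest of the 8 arrays, and the difference was 0.35 ± 0.27 (limma adjusted p = 0.928). MPA aortas had 2.55, 0.96, 2.67 and 1.30, against 1.63, 2.55, 1.86 and 1.998 in placebo aortas, and the difference was -0.14 ± 0.41. Mrc1, the mannose receptor, had 0.52, -0.48, 0.55 and 0.40 in MPA aortas, against -0.43, 1.03, 0.67 and 1.64 in placebo aortas. MPA replicate 2 and placebo replicate 1 were both low, and the difference was -0.48 ± 0.43 (limma adjusted p = 0.885). NET-A aortas had 0.27, 0.58, 0.09 and 0.24, against 0.45, 0.43, 0.33 and 1.59 in placebo aortas. Placebo replicate 4 was the one array far above the rest, and the difference was -0.40 ± 0.29 (limma adjusted p = 0.917).

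The integrins and Cd14 were lower in 3 of 3 cases under both progestins, with medians of -0.49 under MPA and -0.54 under NET-A, none of them called. Itgax, the integrin subunit CD11c, had 0.81, 0.39, 0.95 and 1.41 in NET-A aortas, against 1.95, 1.69, 1.30 and 2.82 in placebo aortas. NET-A replicate 4 alone overlapped, above placebo replicate 3, and the difference was -1.05 ± 0.34 (limma adjusted p = 0.676). The second, dimmer Itgax probe gave -0.30. Cd14, the co-receptor for lipopolysaccharide, had 0.17, -0.32, 0.00 and -0.23 in NET-A aortas, against 0.30, 0.43, 0.11 and 0.96 in placebo aortas. NET-A replicate 1 overlapped with placebo replicate 3, and the difference was -0.54 ± 0.21 (limma adjusted p = 0.759).

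In the MPA experiment Itgax had 2.33, 2.12, 1.44 and 1.76 in MPA aortas, against 1.53, 2.59, 2.55 and 3.02 in placebo aortas, a difference of -0.51 ± 0.33. Cd14 had -1.03, -1.15, -0.85 and -1.25 in MPA aortas, against -1.47, -0.81, -1.12 and 0.27 in placebo aortas, a difference of -0.28 ± 0.34 with placebo replicate 4 highest. Itgam, the integrin subunit CD11b, had -1.88, -1.75, -2.11 and -1.93 in NET-A aortas, against -1.61, -1.62, -1.82 and -0.46 in placebo aortas. The difference was -0.54 ± 0.29 (limma adjusted p = 0.86), and NET-A replicate 2 was the array that overlapped with the placebo arrays. MPA aortas had 1.00, 0.18, 0.92 and 0.48, against 0.13, 1.13, 1.03 and 2.24 in placebo aortas, a difference of -0.49 ± 0.40 (limma adjusted p = 0.875).

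The membrane proteins shared by most leukocytes had both signs under MPA, with 3 of 5 lower and a median of -0.07, while 5 of 5 were lower under NET-A with a median of -0.46; none was called. Cd84, a homophilic receptor of the SLAM family, had -0.93, -0.59, -1.11 and -1.17 in MPA aortas, against -0.60, -0.09, -0.24 and 0.08 in placebo aortas. The groups touched, with MPA replicate 2 just above placebo replicate 1, and the difference was -0.74 ± 0.20 (limma adjusted p = 0.754). Cd53, the tetraspanin whose probe is shown above, had -0.30, -0.68, -0.78 and -0.59 in MPA aortas, against -0.35, 0.01, -0.22 and 0.05 in placebo aortas. MPA replicate 1 overlapped, and the difference was -0.46 ± 0.17 (limma adjusted p = 0.784). NET-A aortas had -0.90, -0.87, -0.61 and -0.09 for Cd84, against 0.00, -0.57, -0.78 and 1.11 in placebo aortas, a difference of -0.56 ± 0.41 (limma adjusted p = 0.92). For Cd53 they had -1.66, -1.81, -1.51 and -1.11, against -1.20, -1.54, -2.01 and -0.03 in placebo aortas, a difference of -0.33 ± 0.39 (limma adjusted p = 0.975). In both genes placebo replicate 4 was the highest of the 8 arrays, and the groups overlapped.

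Cd52, a short glycoprotein of lymphocytes and myeloid cells, had 1.98, 1.82, 2.14 and 3.25 in NET-A aortas, against 3.18, 3.15, 2.61 and 3.62 in placebo aortas, a difference of -0.84 ± 0.34 (limma adjusted p = 0.788). In the MPA experiment its levels were 4.05, 2.92, 2.93 and 3.04 in MPA aortas, against 2.43, 1.42, 2.93 and 4.40 in placebo aortas. The placebo arrays held both the lowest and the highest of these values, and the difference was 0.44 ± 0.57 (limma adjusted p = 0.913). Ptprc, the leukocyte phosphatase CD45, differed by 0.07 under MPA and -0.46 under NET-A, and the lysosomal membrane protein Laptm5 by -0.07 and -0.42. The median of these membrane proteins under MPA is thus the value of the brightest Laptm5 probe. A second Laptm5 probe gave -0.52 under MPA, and further Ptprc probes gave 0.13 to 0.39.

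MPA derives from hydroxyprogesterone and NET-A from nortestosterone. Since the doses are not given, their differences stand side by side, and the difference of the responses, MPA less NET-A, was tested over all 16 arrays with p-values adjusted over 15243 genes, of which 0% were called. None of the 35 genes had a limma p under 0.05 for that difference, and the adjusted p ran from 0.782 to 0.994. The response of Cd52 differed most, by 1.29 ± 0.70 (95% confidence interval -0.21 to 2.78, limma adjusted p = 0.782). For Acp5 the responses differed by -0.50 ± 0.46 (-1.49 to 0.48), for Spp1 by 0.62 ± 0.70 (-0.86 to 2.10) and for Lgals3 by -0.26 ± 0.46 (-1.24 to 0.72). These intervals span 0 and are wide, so they do not show that the compounds act alike.

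Absolute levels differed between the experiments, which were scanned with separate software versions and scaled apart. Cd163 averaged 3.11 ± 0.54 in MPA aortas and 3.78 ± 0.48 in their placebo aortas, and 0.09 ± 0.41 in NET-A aortas and 0.15 ± 0.64 in their placebo aortas (SD, n = 4 each). Msr1 averaged -0.32 ± 0.33 in MPA aortas and 0.45 ± 0.25 in their placebo aortas, and -2.69 ± 0.25 in NET-A aortas and -2.24 ± 1.02 in their placebo aortas. Cd14 ran the opposite way, at -1.07 ± 0.17 in MPA aortas and -0.78 ± 0.75 in their placebo aortas, against -0.09 ± 0.22 in NET-A aortas and 0.45 ± 0.36 in their placebo aortas. Animals and scanning cannot be told apart here.

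The macrophage genes varied together within groups. After group means were subtracted, the correlation of each member with the mean of the others over 16 arrays had a median of 0.84 (Pearson's r), and 24 of 35 exceeded 0.7, where 3.11% of all genes did so with the mean of the members. Fcer1g (0.95), Tyrobp (0.94) and Cd68 (0.94) followed the mean most closely, and Marco (0.13), Acp5 (0.39), Spp1 (0.44), Lyve1 (0.50) and Cd163 (0.53) least. The closest pair was Cd68 with Clec7a (0.97), followed by the adaptors Tyrobp and Fcer1g (0.96). Among the neighbouring genes of chromosome 6, Clec4d correlated with Clec4n by 0.94 and with Clec4e by 0.77, and Clec4e with Clec4n by 0.74. The integrin genes Itgam and Itgax, neighbours on chromosome 7, correlated by 0.69.

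These points share their arrays, scaling and slides, and they are few. Without replicate 4 of both placebo groups the median over the remaining 14 arrays was 0.66 and 17 of 35 exceeded 0.7, with Cd163 (0.04) and Acp5 (0.02) lowest. Members also spread more within groups than other genes did, with a median within-group SD of 0.53, where that of all genes was 0.29.

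**Figure D4:**
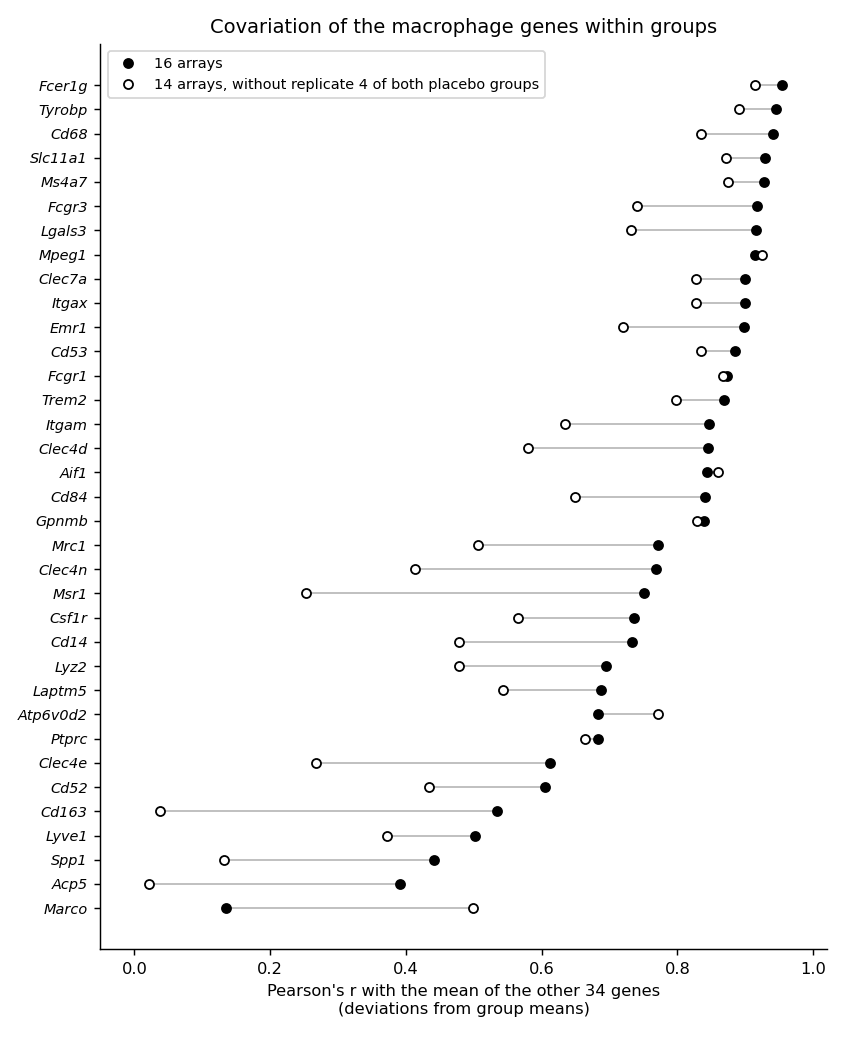
Pearson correlation of each gene with the mean of the other macrophage genes, on deviations from group means, over 16 arrays (filled) and over the 14 left without replicate 4 of both placebo groups (open). Fcer1g and Tyrobp stay near the top in both, while Cd163 and Acp5 are near 0 over the 14 arrays.

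Further macrophage genes outside the list, chosen with earlier results known and read on the same arrays, also had mostly lower means. Averaged against the placebo mean, they too stood highest on replicate 4 of both placebo groups (0.49 for MPA and 0.58 for NET-A). MPA replicate 1 was at 0.10. Of 26 tested under MPA, 20 were lower, with a median of -0.38 (adjusted p at least 0.776), and of 29 under NET-A, 25 were lower, with a median of -0.39 (adjusted p at least 0.607). The groups did not overlap for 1 of the 26 that was lower under MPA, where 1.58% of all genes were so separated. Under NET-A this held for 2 of the 29, where 2.32% of all genes were. The chemokine receptor Ccr2, which brings monocytes into tissue, differed by -1.17 ± 0.20 under NET-A without overlap (limma adjusted p = 0.607) and by -0.31 ± 0.43 under MPA (limma adjusted p = 0.918). The lysosomal protease Lgmn differed by -0.70 ± 0.22 under MPA without overlap (limma adjusted p = 0.776) and -0.41 ± 0.24 under NET-A (limma adjusted p = 0.881). Genes of ITAM signalling and macrophage growth factors had medians of -0.21 under MPA (11 of 16 lower) and -0.34 under NET-A (15 of 17 lower). The kinase Syk differed by -0.32 ± 0.31 under MPA and -0.55 ± 0.30 under NET-A (limma adjusted p = 0.891 and 0.867). None of these genes was called.

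Markers of other cells were read beside the macrophage genes, and none was called. A gene was tested if above background on at least 4 of 8 arrays, which the 4 arrays of 1 group could meet alone. Of 11 neutrophil genes on the array, 7 were tested under MPA and 10 under NET-A. The counts below cover tested genes only. Of all genes tested, 7349 of 15374 were higher under MPA and 9605 of 21183 under NET-A. Neutrophil genes were higher in 7 of 7 cases under MPA (median 2.20) and in 6 of 10 under NET-A (median 0.78), and the log2 of their summed signal was 5.22 to 7.02 in MPA aortas, against 2.49 to 4.47 in placebo aortas, and 2.76 to 4.30 in NET-A aortas, against 1.81 to 2.65 in placebo aortas. In the MPA experiment the neutrophil marker Cd177 was above background on no array, and Mmp8 on no placebo array. Platelet genes were higher in 7 of 7 cases in both experiments (medians 0.88 and 1.93), with summed signals of 5.53 to 6.53 in MPA aortas, against 5.51 to 6.01 in placebo aortas, and of 3.50 to 4.75 in NET-A aortas, against 2.63 to 3.81 in placebo aortas. Erythroid genes were higher in 5 of 5 cases in both (medians 1.06 and 1.53), with summed signals of 9.88 to 11.12 in MPA aortas, against 9.53 to 9.91 in placebo aortas, and of 10.07 to 10.41 in NET-A aortas, against 9.87 to 10.37 in placebo aortas. The part of blood cells in the macrophage values was not tested.

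Lists for the cells of the vessel wall had medians near 0. Smooth muscle genes had medians of 0.00 under MPA and -0.02 under NET-A, with 4 of 8 higher in both, and endothelial genes medians of 0.05 and 0.14. Single arrays were less even. The endothelial mean against the placebo mean ran from -0.47 (replicate 1) to 0.70 (replicate 2) in NET-A aortas, against -0.21 to 0.19 in placebo aortas. In MPA aortas it was -0.14 to 0.32, against -0.35 to 0.22 in placebo aortas. Mast cell genes were lower in 5 of 5 cases under MPA (median -0.63) and in 5 of 6 under NET-A (median -0.20), and T cell genes in 5 of 7 and 9 of 9 (medians -0.14 and -0.19). B cell genes were higher in 4 of 4 cases under MPA (median 0.56) and lower in 4 of 5 under NET-A (median -0.36). Dendritic cell genes were lower in 1 of 2 and 4 of 4 cases, and genes common to adipocytes in 4 of 7 and 3 of 7. Of the genes on the array, 7 of 9 T cell, 4 of 6 B cell and 2 of 6 dendritic cell genes were tested under MPA. Under NET-A these were 9 of 9, 5 of 6 and 4 of 6.

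Arrays stood apart for 2 tissues around the vessel. Brown adipocyte genes were lower in 2 of 6 cases under MPA and 5 of 6 under NET-A, and their mean against the placebo mean was -1.36, 1.38, -1.35 and -0.47 in NET-A replicates 1 to 4, against -0.30 to 0.19 in placebo replicates. NET-A replicate 2, the array with the highest brown adipocyte mean, was lowest for 17 of the 35 macrophage genes, where it was for 24.9% of all genes. NET-A replicates 1 and 3 had the lowest brown adipocyte means. Their means over the 35 macrophage genes were -0.60 and -0.57, against -0.82 in replicate 2 and -0.13 in replicate 4. Skeletal muscle genes had medians of -2.27 under MPA and 0.78 under NET-A, with summed signals of 3.24 to 3.44 in MPA aortas, against 3.46 to 6.27 in placebo aortas, and of 5.37 to 5.87 in NET-A aortas, against 5.32 to 5.83 in placebo aortas. Placebo replicate 3 of the MPA experiment held the value of 6.27, and without it the MPA median was -0.93. The part of these tissues in the macrophage values was not tested.

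**Figure D5:**
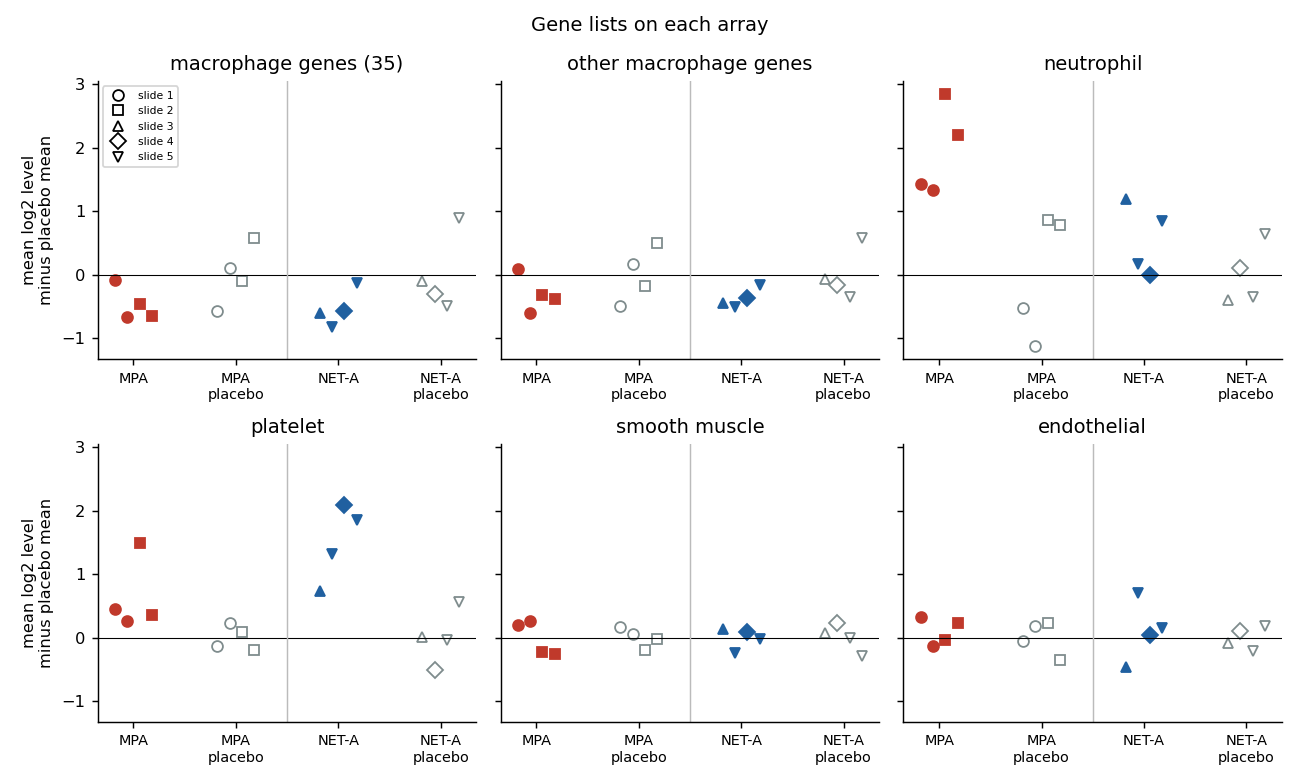
Mean log2 level of 6 gene lists on each array, minus the mean of its own placebo group, in MPA, MPA placebo, NET-A and NET-A placebo aortas; marker shape gives the slide. The macrophage lists lie mostly below 0 in progestin-treated aortas with overlap in both experiments, the neutrophil list lies above 0 on all MPA arrays, and smooth muscle genes stay close to 0.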

How the data were processed

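Per the labels, total RNA of each aorta sample (100 ng) was labelled with Cy3 and hybridised to a one-colour Agilent array. Per the file headers, spot intensity was read by Agilent's Feature Extraction (10.7.1.1 for MPA and its placebo, 11.0.1.1 for NET-A and its placebo) and had its background subtracted; the deposited intensity was not normalized between arrays. The authors' deposited series table holds log2 values; the steps behind it are not given in the sources used here. Against the arrays its columns correlated by 0.929 to 0.993 with log2 levels centred on each probe's median, slopes were 0.872 to 1.13 and column medians -0.027 to 0.015, so scale, centring and direction are inferred. It served as an alternative.

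Outlier spots were left out (1802 probe values, 0.274%) and none was saturated. Log2 of the processed signal minus the array's 75th percentile over 41174 probe averages was taken, and a gene used its brightest probe over 16 arrays. Gene names of the NET-A files came from the MPA files through the probe name; 26690 probes matched RefSeq by accession and 3169 took a newer symbol. Genes well above background on at least 4 of 8 arrays were tested by two-sided moderated tests (lmFit and eBayes of limma 3.58.1, R 4.3.3) at a Benjamini-Hochberg threshold of 0.05. On simulated data with independent noise per gene, 41% (MPA) and 36% (NET-A) of genes given a log2 change of 1 were called. For a change of 2 these shares were 88% and 79%, so many changes of the size seen here would be missed. Between 46.3% (MPA replicate 2) and 78.5% of spots were well above background, and arrays of a group correlated by 0.952 to 0.987. The number of arrays limits the precision.

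The members and lists were chosen with earlier results of these data known. All 35 members may be named, and at most 3 genes per further list. Levels per sample are given for those with the smallest p in each role group and for those whose groups did not overlap. For Clec7a, Clec4d and Tyrobp they are given only for the experiment with the larger difference. Spp1 (NET-A) and Clec4e (MPA) fall outside this rule and were added after their values were seen, for their extreme differences. Probe coordinates are mm9 and promoter coordinates GRCm38.p6. Alternatives covered background correction, normalization, filters, probe choice, slide and replicate terms, array weights, left-out arrays and the series table. After results had been seen, the percentile was moved from all spots to probe averages, as the design words it; the earlier setting is among the alternatives.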

Additional observations from a re-analysis of the deposited data

Results flagged for a closer look

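A gap test for a single distant sample (Dixon's, at its 95% critical value for 4 samples) was applied to 139 sets of 4 arrays, 1 per gene and group, and marked 12 values in 11 genes. Chance marks about 1 in 20 groups, and genes that vary together are marked together. In NET-A aortas, replicate 4 was distant and high for Cd68 (1.94, next 1.16), Gpnmb (4.34, next 3.41) and Clec7a (2.71, next 1.73). In MPA aortas, replicate 1 was distant and high for Mpeg1 (4.91, next 4.11) and Cd52 (4.05, next 3.04), and replicate 2 was distant and low for Mrc1 (-0.48, next 0.40).

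In the NET-A placebo group, replicate 4 was distant and high for Clec4d (1.13, next -0.37), Mrc1 (1.59, next 0.45), Lyve1 (0.0737, next -0.89) and Itgam (-0.46, next -1.61). In the MPA placebo group, replicate 4 was distant and high for Clec4n (-0.78, next -2.01), and replicate 3 was distant and low for Lyz2 (8.82, next 9.38).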

How the results depend on the processing

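No member was called under any of the 23 alternatives run for MPA and the 22 for NET-A, and the smallest adjusted p was 0.111 (MPA, normexp) and 0.502 (NET-A). The median over the members kept its sign in all of them; leaving out 1 array gave -0.74 to -0.34 for MPA and -0.67 to -0.21 for NET-A. By gene, 22 of 35 kept their sign throughout under MPA and 26 of 35 under NET-A. Members higher under MPA numbered 3, against 6 with normexp background correction, 9 within slide 1, 1 within slide 2 and 2 to 6 with 1 array left out (6 without placebo replicate 4, 5 without MPA replicate 2 or 4). Members higher under NET-A numbered 1, against 2 with normexp, 2 with array weights, 2 within slide 5 and 1 to 9 with 1 array left out (9 without placebo replicate 4, 3 without NET-A replicate 1, 2 or 3). For normexp the NET-A files gave median in place of mean spot signals.

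The number of genes called under MPA was 0, against 1 with slide as a block (S100a8) and 1 in the fit over all 16 arrays (a transcript without a gene symbol). For the difference between the responses it was 0, against 0 to 1 with 1 array left out (Fam107a, without NET-A replicate 1). The median difference of the responses was -0.03 and changed sign: it was 0.04995 for genes above background on all 8 arrays, 0.0414 with the mean of all probes, and -0.26 to 0.22 with 1 array left out; the cause was not tested. With the replicate number as a block, 1 gene was called for the difference (Sall4) and no other call was gained. None of the genes called is a member. Deviations of same-numbered arrays correlated by -0.24 to 0.24 in the MPA experiment and -0.33 to 0.33 in the NET-A experiment, so the numbers were not taken to pair the samples.

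Chosen after seeing the data were the skeletal muscle median without 1 placebo array, given with that list, a percentile over all spots and a filter that ignores outlier spots; neither of the last 2 changed a call or the number of members higher by more than 1.5 times. The small number of arrays and probes near background (Marco, Clec4n) limit what single genes can show.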
